A study of Sus scrofa with 70 samples.

Results

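The isoforms described here were those found in testis only. They were chosen from the full-length read counts of long-read (Iso-seq) libraries: an isoform was a member when it had at least 2 reads in the BMI testis library, at least 2 in the DSE testis library and 0 in each of the 8 libraries of the other glands. Of 110996 non-redundant isoforms, 4769 met the rule, from 2602 genes. BMI is the Banna mini-pig inbred line and DSE is the Diannan small-ear pig from which it was bred. The 5 glands sampled were testis, epididymis and, of the accessory glands, the vesicular, prostate and bulbourethral gland, all from adult boars of 12 months. Each breed and gland had 1 Iso-seq library and 3 short-read RNA-seq libraries, with no treatment. Nothing in the sources states that an Iso-seq library held RNA of 1 animal or of several.

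Testis is the gland in which spermatogonia pass through meiosis and become spermatids, while Sertoli cells nurse them and Leydig cells make steroids. Germ cells are known for transcribing a large part of the genome and for using promoters, splice sites and polyadenylation sites that other cells do not use. Many enzymes and structural proteins of sperm are therefore made from testis forms of genes that are active elsewhere as well. A transcript form can differ from others of its gene in the first exon, which marks the promoter, in inner splice sites, or in the last exon.

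The reads that chose the members are given as a description. The testis libraries held 455023 (BMI) and 457778 (DSE) full-length reads, and the other 8 held 231413 to 458697 each and 2555309 together. Members took 58735 of the BMI testis reads (12.9%) and 58859 of the DSE testis reads (12.9%). The median member had 11 testis reads, with a range of 4 to 3348, and 177 members had at least 100. A count of 0 over the other 8 libraries allows up to 1.17 RPM (reads scaled to a common library size, from 3 counts over the 8 together), while 4 testis reads are 4.38 RPM, so these counts cannot separate absence from a level below that limit. This limit covers counting error only and pools the 8 libraries. For any 1 gland, with fewer reads, the limit is higher, and members with few testis reads may lie under it. Just inside the rule were 406 members with exactly 2 reads in each testis library. Just outside it were 3122 isoforms with at least 2 reads in 1 testis library, 1 in the other and none elsewhere, and 915 with at least 2 in both and a single read elsewhere, which lay in an epididymis library for 519. An isoform of SULT1C3, a sulfotransferase, had 2169 BMI and 1216 DSE testis reads and missed the rule for 2 epididymis reads. The same rule applied to each other gland gave 434 isoforms for epididymis, 155 for bulbourethral gland, 48 for vesicular gland and 18 for prostate gland.

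Testis was checked against markers of its cells, and 1 library stood apart. In the RNA-seq libraries, expression was given as TPM, a length-scaled share of each library's transcripts. Summed over their lists, the TPM of 8 spermatid markers was 25617 to 117130 in testis and at most 7.31 in the accessory glands, that of 7 spermatocyte markers 273 to 1125, that of 6 Leydig markers 18624 to 63648 and that of 9 Sertoli markers 253 to 713. In the other 24 libraries the last 3 lists summed to 0.917 to 14.7, 0.0919 to 4.09 and 15.1 to 119 TPM. Among the defining genes, PRM1 averaged 51526 TPM, CYP17A1 6442 TPM and SYCP3 126 TPM in testis, and FSHR, listed at 0 in every other library, 6.30 TPM. Not every Sertoli marker was highest in testis, since SOX9 averaged 19.3 TPM there against 77.2 TPM in prostate gland and 89.8 TPM in bulbourethral gland. The mean of AMH was highest in testis, at 1.42 TPM, but close to the 1.29 TPM of prostate gland. In testis the defining markers of other glands were low, with CRISP1 at a mean of 0.108 TPM and HOXB13 at 0.0689 TPM. The DSE testis replicate 2 had the lowest sum of every germ cell list and the highest of the Leydig and Sertoli lists (25617, 273, 63648 and 713 for spermatid, spermatocyte, Leydig and Sertoli markers, against 76563 to 117130, 742 to 1125, 18624 to 32451 and 253 to 435 in the other 5 libraries). It was also the highest of the testis libraries in the sums of accessory gland (154 TPM, others 73.8 to 98.9), smooth muscle (160, others 87.6 to 119), endothelial (41.7, others 18.6 to 36.7) and macrophage markers (14.3, others 4.84 to 8.79), and the lowest in epididymis markers (3.71, others 7.58 to 13.2). Spermatid markers also summed to 1.35 to 1040 TPM in the epididymis libraries. In bulk tissue, fewer cells of a type and less RNA per cell cannot be told apart. The total counts of called members and of their called genes are given with and without the DSE testis replicate 2.

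Members were mostly forms that the Ensembl annotation does not hold. By SQANTI3 category, 3380 of the 4769 (70.9%, Wilson 95% interval 69.6 to 72.1%) fell in the class not in catalog (NNC), meaning that they use at least 1 splice site absent from the annotation of a known gene. A further 436 (9.14%) fell in the class in catalog (NIC), unannotated combinations of known sites. Full splice matches (FSM) numbered 245 (5.14%) and incomplete splice matches (ISM) 178 (3.73%). The remaining members were 175 Fusion (3.67%), 165 Intergenic (3.46%), 126 Antisense (2.64%) and 64 Genic (1.34%) isoforms. The most fitting set for comparison is the 12650 isoforms with at least 2 reads in both testis libraries and at least 1 read in another gland, called shared testis isoforms below. Of those, 31.2% (30.4 to 32.0%) were NNC, 23.0% FSM and 0.324% Intergenic. Of the 434 isoforms found in epididymis only, 49.1% (44.4 to 53.8%) were NNC. Most isoforms of the series were unannotated too, since of all 110996 50.2% were NNC, 6.54% FSM and 11.9% ISM. Isoforms of a library are not replicates, so the intervals cover counting error only and no test was made.

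**Figure D1:**
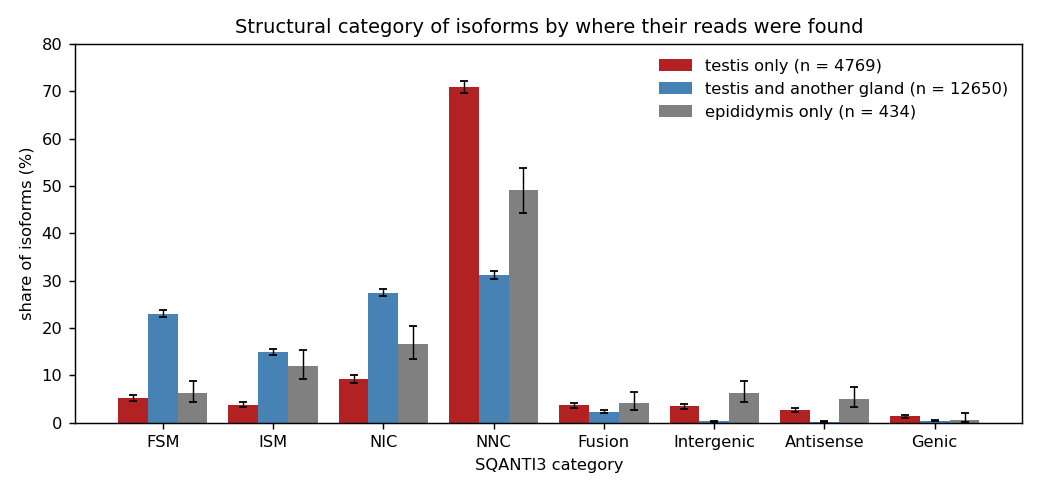
Share of isoforms (%, y axis) in each SQANTI3 category (x axis) for isoforms found in testis only, testis isoforms shared with another gland and isoforms found in epididymis only. Bars are shares and error bars Wilson 95% intervals. NNC forms 70.9% of the testis-only isoforms against 31.2% of the shared ones and 49.1% of the epididymis-only ones.

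Members held more NNC isoforms than the shared set in each of the read classes. Among isoforms with 4 to 9 testis reads, 72.3% of members and 39.0% of shared testis isoforms were NNC, and among those with at least 50 reads 65.5% and 24.03%. Quality features in the deposited SQANTI3 columns were close to those of the shared set or moved either way. All junctions were canonical in 94.9% of members and 96.7% of shared isoforms. Template switching was marked for 3.73% and 4.06%, a polyadenylation motif was found for 86.9% (85.9 to 87.8%) and 86.1% (85.5 to 86.7%), and 60% or more A after the 3′ end, a sign of priming inside a transcript, was seen for 12.7% and 16.8%. The motif was AATAAA in 55.7% of members and 57.0% of shared isoforms. An open reading frame (ORF) was predicted for 95.3% of members, with a median of 523 residues, and 15.1% of those were predicted targets of nonsense-mediated decay, against 9.47% of the shared set, 21.6% (17.7 to 26.1%) of isoforms found in epididymis only and 22.1% of all isoforms. Of members in the NIC and NNC categories, 31.8% retained an intron, against 45.7% of the shared ones. Members lay on the X chromosome in 2.35% (1.96 to 2.82%) of cases and shared isoforms in 2.61% (2.35 to 2.90%).

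Members had short 3′ untranslated regions. The median was 692 bp in coding members and 1368 bp in coding shared isoforms, while their median ORFs were 523 and 493 residues. Within genes the difference in these regions was small. In 1343 genes that held coding isoforms of both sets, the member median was shorter in 282, longer in 195 and equal in 866, with a median difference of 0. Within the same genes the ORF was shorter in members in 760, longer in 312 and equal in 271. Its medians there were 529 residues in members and 595 in shared isoforms, the reverse of the pooled order.

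What set members apart from the other isoforms of their genes was most often the first exon. In 1301 of the 2602 genes, other isoforms had at least 10 reads outside testis, and 2304 members of these genes have exons in the deposited annotation. For 1182 of them (51.3%, 49.3 to 53.3%), the first splice donor, the site that ends the first exon, was used by no isoform read outside testis. The last acceptor was unseen outside testis for 177 (7.68%) and an inner site for 685 (29.7%). The first donor alone was unseen for 907 (39.4%), the last acceptor alone for 57 (2.47%) and an inner site alone for 343 (14.9%), and 233 (10.1%) joined sites that were all seen outside testis in a new way. All introns of 410 (17.8%) were seen in isoforms of the other glands. FSM and ISM isoforms entered this count through the introns of their Ensembl transcript. A site counts as unseen only at the depth of the other 8 libraries.

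Over all 4346 members with exons in the annotation, 2818 (64.8%, 63.4 to 66.2%) had a first donor that belongs to no Ensembl transcript, and 2187 (50.3%) had one that was in addition used by no isoform read outside testis. Of 7844 such shared testis isoforms, 27.6% (26.6 to 28.6%) had an unannotated first donor, and of 355 epididymis-only isoforms 49.6% (44.4 to 54.8%). Over all 90535 isoforms with exons in the annotation the share was 41.3%. By another measure, a start over 100 bp from every Ensembl start, members and epididymis-only isoforms were close, at 73.4% (72.1 to 74.7%) and 74.1% (69.3 to 78.4%), against 43.8% of the shared set. The first intron was absent from Ensembl in 70.4%, 56.3% and 37.9% in that order. In the smaller sets of the other glands it was absent for 30 of 43 vesicular gland isoforms (69.8%, 54.9 to 81.4%), 70 of 122 bulbourethral gland isoforms (57.4%) and 7 of 14 prostate gland isoforms, and the first donor was unannotated for 46.5%, 54.1% (45.3 to 62.7%) and 42.9%. The share with an unannotated first donor was 62.8% of members with 4 to 9 testis reads, 66.5% with 10 to 19, 64.9% with 20 to 49 and 70.4% with at least 50. In the lowest and highest of these classes of the shared set it was 30.3% and 23.5%.

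**Figure D2:**
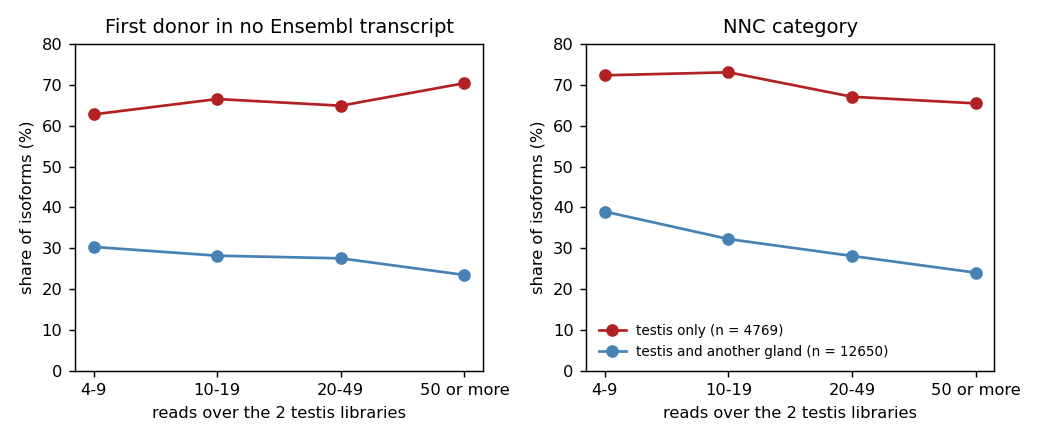
Share of isoforms (%, y axis) whose first splice donor is in no Ensembl transcript (left) and that are NNC (right), by the number of reads over both testis libraries (x axis). Lines join read classes within testis-only and shared testis isoforms, and testis-only isoforms lie above shared ones in every class, with 70.4% against 23.5% for the first donor at 50 or more reads.

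In the 1301 genes read elsewhere, 1142 of the 1182 members had a first donor that is in addition in no Ensembl transcript, here called a first donor of testis isoforms only. They came from 744 genes and 908 distinct donors. For 892 of these the gene has an Ensembl start. The testis start lay over 100 bp downstream of the gene's first Ensembl start for 640, at a median of 9738.5 bp inside the gene, over 100 bp upstream for 215, at a median of 3950 bp, and within 100 bp for 37. The predicted protein was compared with that of the isoform of the same gene with most reads outside testis. Of 1110 such members with a coding partner, 572 (51.5%) shared the last 20 residues but not the first 20, 57 (5.14%) shared the first 20 but not the last, and 293 (26.4%) had the same ORF. Among 1144 members of these genes with another kind of first donor, 28.9% shared the last 20 residues alone, 25.1% the first 20 alone and 16.3% had the same ORF. The ORF was shorter than that of the partner for 625 of the 1110 and longer for 189. These ORFs are predictions.

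The sequence before these starts is shown for a few genes, because promoters with and without CpG dinucleotides can be told apart in the letters. The 120 bases before the start are read from Sscrofa11.1 (RefSeq), 5′ to 3′ on the gene's strand, with CG dinucleotides in capitals, and none of these windows overlaps an exon of the deposited annotation. AKAP12 encodes a scaffold for protein kinase A, PRDX4 a peroxiredoxin, SRP54 the signal sequence binding subunit of the signal recognition particle, TRMO a tRNA methyltransferase and STARD10 a lipid transfer protein. The PRDX4 isoform is shown although its first donor is annotated, since its gene was not called higher in testis as a whole. For AKAP12 and PRDX4 the start of the isoform with most reads outside testis is given as well.
AKAP12, testis-only isoform (chr1:14919527-14919646, minus strand): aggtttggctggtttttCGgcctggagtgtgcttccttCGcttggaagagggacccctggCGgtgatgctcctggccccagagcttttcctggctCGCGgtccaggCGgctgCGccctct
AKAP12, isoform of other glands (chr1:15017489-15017608, minus strand): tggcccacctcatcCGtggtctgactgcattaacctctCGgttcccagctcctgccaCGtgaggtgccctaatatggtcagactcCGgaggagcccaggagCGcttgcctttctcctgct
PRDX4, testis-only isoform (chrX:19797364-19797483, plus strand): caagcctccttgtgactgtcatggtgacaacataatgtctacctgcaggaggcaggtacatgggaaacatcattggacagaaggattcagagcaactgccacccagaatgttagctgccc
PRDX4, isoform of other glands (chrX:19799927-19800046, plus strand): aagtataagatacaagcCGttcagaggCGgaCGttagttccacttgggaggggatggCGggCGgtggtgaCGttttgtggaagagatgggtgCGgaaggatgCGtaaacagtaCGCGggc
SRP54, testis-only isoform (chr7:64868014-64868133, minus strand): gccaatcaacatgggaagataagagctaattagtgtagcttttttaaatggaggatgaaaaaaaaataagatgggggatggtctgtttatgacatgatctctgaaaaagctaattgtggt
TRMO, testis-only isoform (chr1:239814194-239814313, minus strand): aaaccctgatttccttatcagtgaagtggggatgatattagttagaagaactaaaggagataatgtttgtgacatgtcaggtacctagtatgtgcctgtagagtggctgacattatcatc
STARD10, testis-only isoform (chr9:7330139-7330258, minus strand): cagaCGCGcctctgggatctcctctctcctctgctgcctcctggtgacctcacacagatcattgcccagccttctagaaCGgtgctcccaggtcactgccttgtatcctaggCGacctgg

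The testis windows of PRDX4, SRP54 and TRMO held 0 CpG dinucleotides, that of STARD10 4 and that of AKAP12 7, while the window of the other glands held 10 for PRDX4 and 5 for AKAP12. The windows printed were chosen after their letters were seen. The other named members read in the same way, also without an exon in the window, held 11 (USP2), 10 (SYCE3), 1 (ZNF451) and 0 (CENPJ and SOX5), so these windows ranged from 0 to 11. Over windows of 250 bases before to 50 after the start, a ratio of observed to expected CpG above 0.6 was found for 48.1% of 899 testis first-exon starts in genes read elsewhere. It was found for 67.02% of 1780 Ensembl starts of the same genes, 67.2% of 887 starts of members with an annotated first donor, 83.4% of 5718 starts of shared testis isoforms, 32.9% of 228 starts of epididymis-only isoforms and 42.1% of 50563 Ensembl starts in all. The median number of CpG dinucleotides was 13, 23, 21, 25, 7.5 and 9 in the same order. The cAMP response element TGACGTCA, searched on both strands, was present in 2.0% of the 1650 starts of members with a testis first donor (1.78% of the 899), in 2.02% of the 1780 Ensembl starts of the genes of the 899, in 2.93% of starts of members with an annotated first donor, in 3.76% of the shared starts, in 1.32% of epididymis-only starts and in 1.59% of all Ensembl starts. TATAAA was present in 9.33% of the 1650 (9.12% of the 899) and, in that order, in 7.87%, 6.31%, 5.74%, 14.5% and 14.3% of the others. A match to these letters is a description and not a site.

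The 6 members with most testis reads among those with a first donor of testis isoforms, in genes with a symbol and at least 10 reads outside testis, were forms of AKAP12, TRMO, USP2 (a ubiquitin protease), CENPJ (a centriole protein), ZNF451 (a SUMO ligase) and SRP54. Their donors are printed with 9 exon bases and 10 intron bases, the first 2 intron bases in capitals, since no isoform read in another gland used these sites.
AKAP12 (chr1:14919337-14919355, minus strand): acctctgctGTgagtagcg
TRMO (chr1:239814076-239814094, minus strand): tgaatcaagGTactgtggg
USP2 (chr9:46590211-46590229, minus strand): aagaggcagGTacctgcca
CENPJ (chr11:355420-355438, minus strand): aggctacagGTgaacattt
ZNF451 (chr7:28764168-28764186, minus strand): caagcattaGCaagtggac
SRP54 (chr7:64867789-64867807, minus strand): aaaattaagGTaagtacat

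The donors of AKAP12, TRMO, USP2, CENPJ and SRP54 began with GT, and that of ZNF451 with GC. The SRP54 isoform had 92 BMI and 100 DSE reads, 68.1% of the testis reads of a gene with 729 reads elsewhere, and its start lay 9182 bp inside the gene. The AKAP12 isoform had 111 and 232 reads (63.9% of the testis reads of the gene) and began 97471 bp inside it. The TRMO isoform had 149 and 150 reads (92.6%) and began 9050 bp upstream of the annotated gene. The USP2 isoform had 156 and 124 reads (74.5%) and began only 54 bp upstream of the annotated gene. That of CENPJ had 127 and 132 (47.1%) and began 59 bp upstream. The first exon of the CENPJ isoform (355430 to 355640) overlaps that of the isoform with most reads outside testis (355455 to 355581). The ZNF451 isoform had 91 and 109 reads (31.7%) and began 1099 bp inside the gene. At least 50% of the testis reads lay in members for 291 of the 1301 genes read elsewhere, and in 371 of them the isoform with most testis reads was a member.

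At the other end were genes with no read outside testis. They numbered 857 and held 1348 members. Over all genes and by category, the FSM member with most reads was CYP17A1, the steroid hydroxylase of androgen synthesis, with 1484 BMI and 1864 DSE reads, and the NNC one a form of the unnamed gene ENSSSCG00000030168 with 1248 and 1172. The leading NIC member was ODF2, a protein of the outer dense fibres of the sperm tail (180 and 252 reads), the Genic one IRGC, a testis GTPase (225 and 362), and the ISM one TKTL1, a transketolase homologue (268 and 103). The leading Fusion isoform joined ENSSSCG00000044259 and ENSSSCG00000044685 (105 and 101 reads), the Intergenic one lay on chromosome 6 (64 and 31), and the Antisense one lay opposite NAV2 (36 and 114). In RNA-seq the Intergenic isoform was at 9.74, 12.2 and 10.8 TPM in BMI and 7.93, 30.4 and 11.7 TPM in DSE testis, and at most at 0.17 TPM elsewhere.

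A gene held 1 member in 1652 of 2602 cases and at least 10 members in 20. ODF2 had most, with 42 of its 112 isoforms found in testis only. The 39 with exons in the annotation used 6 first donors, and 3 of them had a donor of testis isoforms only. Their reads ranged from 2 to 180 in BMI and from 2 to 252 in DSE, and together they held 1754 of 3256 testis reads of the gene. Their ORFs ran from 548 to 908 residues. ATP8B3, a phospholipid flippase, and ACSBG2, an acyl-CoA synthetase of testis, had 24 members each, and all 24 of ACSBG2 shared 1 annotated first donor. The most-read member of ATP8B3 was at 4.50 to 26.6 TPM in testis and 0 elsewhere. That of ACSBG2 was at 2.87, 49.3 and 59.0 (BMI) and 62.2, 23.98 and 72.8 TPM (DSE), and its BMI replicate 1 stood low. EZH2, the Polycomb histone methyltransferase, had 17 members, of which 15 had an unannotated first donor and none more than 16 reads in a library.

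RNA-seq libraries gave a second measure of the members. The authors quantified Ensembl transcripts together with the isoforms outside FSM and ISM, so that 4346 members could have a TPM of their own, and 4124 were listed. The other 222 had a median of 10 and up to 211 testis reads. Listed members summed to 90355 to 103660 TPM in 5 testis libraries (9.04 to 10.4% of the total) and to 37659 TPM in the DSE testis replicate 2 (3.77%). In epididymis they summed to 3503 to 4774 TPM, in bulbourethral gland to 2740 to 3246, in prostate gland to 1487 to 2540 and in vesicular gland to 1463 to 2091. All testis libraries lay above all others, the DSE testis replicate 2 included. The median member averaged 4.80 TPM over the 6 testis libraries and 0.0197 TPM over the 24 others, and 1133 were at 0 in all 24. In all 6 testis libraries 115 listed members were at 0.

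**Figure D3:**
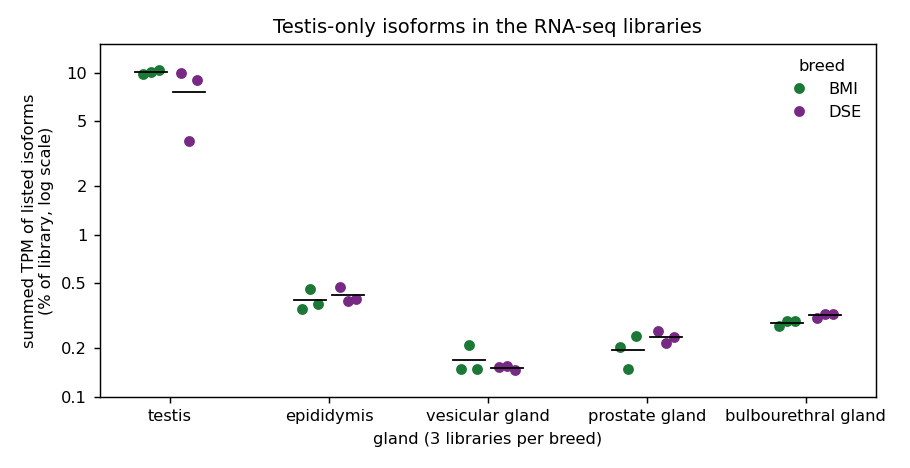
Summed TPM of the 4124 listed testis-only isoforms as a share of each library (%, log y axis) in 5 glands (x axis). Points are libraries, 3 per breed and gland, and lines group means. Testis libraries lie at 3.77 to 10.4%, the lowest being the DSE testis replicate 2, and all other libraries at 0.477% or less.

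The mean was highest in testis for 3916 of the 4124 listed members (94.96%), against 34.2% of all listed transcripts, and all 6 testis libraries lay above all 24 others for 2441 (59.2%), against 8.84% of all. Transcripts were fitted with limma on log2(TPM + 1) and counted as called when the p adjusted after Benjamini and Hochberg was under 0.05 and the change at least 1 on the log2 scale. Of 64661 tested transcripts, 28.4% were called higher in testis than in the other 4 glands on average and 9.53% lower. A filter of at least 1 TPM in at least 3 libraries was passed by 3455 members and 3180 of them were called higher and 8 lower. Since a member passed the filter only where it was present, these counts give no support of their own and are an account. The number called higher was 3118 against epididymis (25.5% of all transcripts), 3207 against vesicular gland (33.1%), 3191 against prostate gland (29.4%) and 3156 against bulbourethral gland (27.5%). Without the DSE testis replicate 2, 3226 of 3405 tested members were called higher and 6 lower. The median log2 fold change was 2.54 over the tested members and 0.06 over all tested transcripts. The 245 FSM members have no entry of their own, but 240 of their Ensembl transcripts were listed, with the highest mean in testis for 231.

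The 8 called members with the largest fold changes, taken from those whose testis libraries all lay above the others, belonged to LELP1, OAZ3, IQCF5, LLCFC1, CBY2, SYCE3, PRM2 and TEX35. The isoform of LELP1, a small proline-rich protein, was at 1767, 1691 and 1779 TPM in the BMI testis libraries and at 1459, 546 and 1615 TPM in the DSE ones. It ranged from 0 to 22.6 TPM over the other 24, with its mean of 6.77 TPM in epididymis the highest of the 4 glands. Its log2 fold change on the log2(TPM + 1) scale was 9.90 ± 0.41 (SE; adjusted p = 1.8e-16, limma). The isoform of OAZ3, the antizyme of haploid germ cells, was at 2187, 2345 and 2365 TPM in BMI and 2272, 596 and 1888 TPM in DSE testis, and at most at 26.3 TPM elsewhere (log2 fold change 9.63 ± 0.38, SE). Here too the DSE replicate 2 was lowest, and no ORF was predicted for this isoform. The isoform of SYCE3, of the central element of the synaptonemal complex, had 9 BMI and 5 DSE reads, all the reads of its gene, and 186 to 843 TPM in testis against at most 4.41 elsewhere. Its first donor is not in Ensembl, and its start lay 12145 bp upstream of the annotated gene. The PRM2 isoform, of the protamine that packs sperm DNA, held 5.20% of the testis reads of its gene and was at 153 to 1061 TPM in testis. IQCF5, LLCFC1 (a sperm protein of gamete fusion), CBY2 (a spermatid protein) and TEX35 followed, with log2 fold changes of 8.61 to 8.97. For all 8 the highest mean outside testis was in epididymis, at 1.37 to 7.29 TPM, where spermatid markers were also seen (at most 1040 TPM). The part of these markers in the epididymis values was not tested.

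Gene and isoform parted for some members. Gene TPM was called higher in testis for 2182 of the 2584 tested genes with a member (2199 of 2584 without the DSE testis replicate 2), against 34.6% of all 19796 tested genes. Of the members called higher, 2864 belonged to a gene that was called as well, and 316, from 256 genes, to a gene that was not. The 3 of these with the largest change were forms of ATOX1 (a copper chaperone), PRDX4 and STARD10. No ORF was predicted for the ATOX1 isoform. The ATOX1 isoform was at 390, 375 and 503 TPM in BMI testis and 328, 90.1 and 461 TPM in DSE testis, and at 0 to 3.65 TPM in the other 24 libraries. The groups did not overlap, and the log2 fold change was 7.34 ± 0.28 (SE; adjusted p = 3.7e-17, limma). The whole gene was at 418 to 725 TPM in testis and 263 to 2313 TPM elsewhere, with a log2 fold change of -0.16 ± 0.15 (SE; adjusted p = 0.33). The isoform began 23482 bp upstream of the annotated gene, behind a window that overlaps an exon of ENSSSCG00000035676, and it held 87.5% of the 32 testis reads of the gene.

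The PRDX4 isoform, on chromosome X, was at 150, 148 and 160 TPM in BMI testis and 139, 30.7 and 140 TPM in DSE testis, and listed at 0 in all 24 other libraries, so that it entered the fit through testis alone and no p is given. The gene was at 143 to 295 TPM in testis and 58.4 to 654 TPM elsewhere (log2 fold change 0.45 ± 0.17, SE; adjusted p = 0.020, limma), a change too small to be called. Its first donor is an annotated one, and its start lies 2563 bp before the one that the other glands used. The STARD10 isoform was at 187, 153 and 172 TPM in BMI testis and 115, 34.9 and 131 TPM in DSE testis against at most 5.20 TPM elsewhere, while the gene differed by a log2 fold change of 0.66 ± 0.19 (SE; adjusted p = 0.0031, limma), again under the fold threshold. The SRP54 isoform was at 5.03 to 41.1 TPM in testis and at most 0.45 TPM elsewhere, and its gene at 33.2 to 78.6 and 16.6 to 59.7 TPM (log2 fold change 0.84 ± 0.16, SE; adjusted p = 3.9e-05, limma), also under it. In TRMO and AKAP12 the gene was called higher too, at log2 fold changes of 3.84 ± 0.17 and 4.04 ± 0.48 (SE). In each of these 6 genes the DSE testis replicate 2 had the lowest isoform TPM of the testis libraries.

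**Figure D4:**
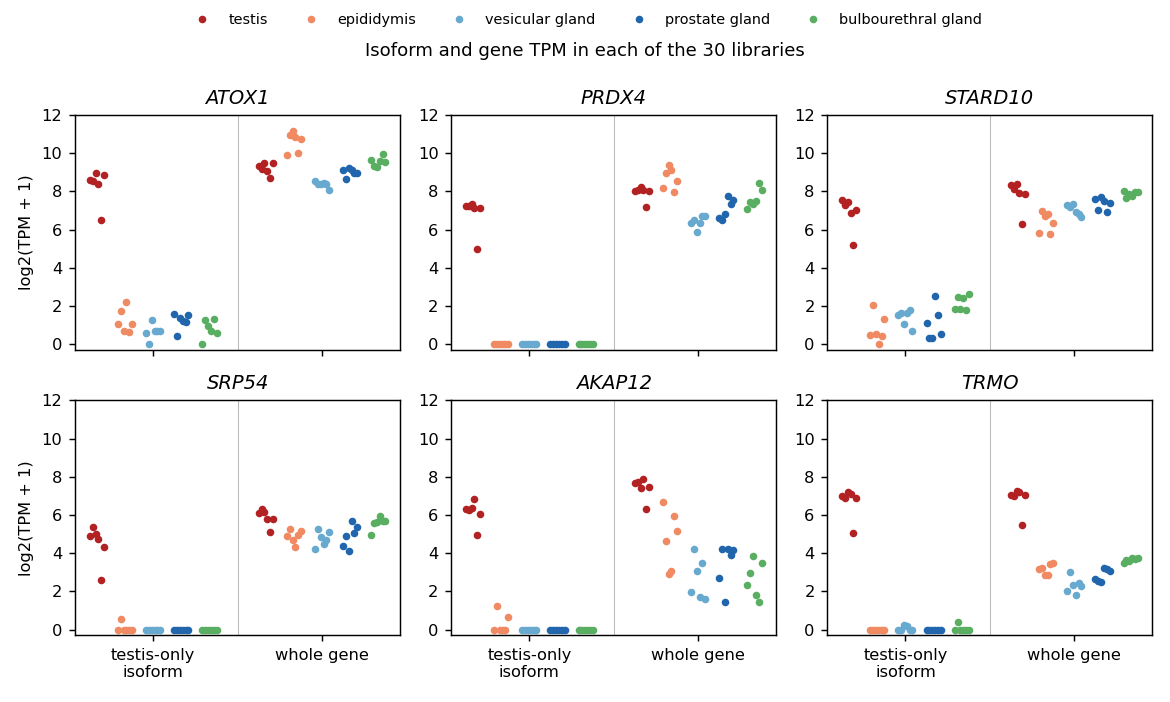
log2(TPM + 1) (y axis) of the testis-only isoform (left of each panel) and of its whole gene (right) for 6 genes in the 30 RNA-seq libraries, coloured by gland, 6 per gland. The isoforms lie at 5.03 to 503 TPM in testis and at most at 5.20 TPM elsewhere, while gene TPM overlaps between testis and the other glands for ATOX1, PRDX4, STARD10, SRP54 and AKAP12 and does not for TRMO.

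Members were present in the lists of germ cell genes, which were drawn up with results of these data known. Over all genes with an isoform, 2602 of 22318 (11.7%) had a member. Of the sperm flagellum list, 46 of 78 genes had 136 members, and 66 of its 69 tested genes were called higher in testis (34.6% of all genes were). Its leading members were the ODF2 isoform above, at 87.5 to 207 TPM in 5 testis libraries, 37.0 TPM in the DSE replicate 2 and 0 elsewhere, and the FSM of CABYR, a calcium-binding protein of the fibrous sheath, with 126 BMI and 209 DSE reads. Of the acrosome and sperm head list, 17 of 38 genes had 37 members and 35 of 35 tested genes were called higher. GSG1 (72 and 59 reads) and SPACA1, a membrane protein of the acrosome (99 and 30 reads), led it. Of the meiosis list, 23 of 50 genes had 46 members and 34 of 38 tested genes were called higher, with CNTD1 (58 and 97 reads), which acts in crossover formation, and HORMAD1 (63 and 40), of the chromosome axis, in front. Of the piRNA pathway list, 12 of 22 genes had 32 members and 18 of 19 tested genes were called higher. Its leading members were TDRD1 (69 and 54 reads), which was not listed with a TPM, and DDX4 (81 and 17), the germ cell helicase. Of 8 germ cell metabolic enzymes, 4 had 12 members and 6 of 6 tested genes were called higher, among them LDHC, the lactate dehydrogenase of sperm, whose leading member was at 34.0 to 175 TPM in testis and at most 0.68 elsewhere. The other leading member was a form of ADCY10, the soluble adenylyl cyclase, with 12 reads in each library.

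The list of genes with a known testis promoter held 8 genes, of which HK1, PRKACA and SOX5 had members. PRKACA encodes a catalytic subunit of protein kinase A, which sperm make in a form with its own first exon. Its member was a FSM with 38 BMI and 63 DSE reads, 93.5% of the testis reads of the gene. The Ensembl transcript it matches was at 6.24 to 27.2 TPM in testis and at most 0.45 TPM elsewhere, while the gene was at 58.7 to 80.02 TPM in testis and 17.3 to 60.8 TPM elsewhere. SOX5 encodes a transcription factor with a long form in cartilage and a short one in testis. Its member had 68 and 16 reads, an ORF of 485 residues and a start 451429 bp inside the annotated gene, and was at 19.2 to 84.5 TPM in testis and at most 0.43 TPM elsewhere. HK1, hexokinase, had 4 members with 42 reads of 734 testis reads. Of 6 tested genes of the list, 5 were called higher.

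The somatic cells of testis also had members. All 6 Leydig markers with isoforms (CYP11A1, CYP17A1, HSD17B3, INSL3, LHCGR and STAR) had members, 15 in all with 4770 reads, and 6 of 6 genes were called higher, against 34.6% of all tested genes. Of 9 Sertoli markers, FSHR, GATA4 and INHA had 4 members, and 7 of 9 genes were called higher and 1 lower. The Ensembl transcript of the CYP17A1 member was at 3768 to 5797 TPM in 5 testis libraries and 13872 TPM in the DSE replicate 2. Of the markers of germ cells, 3 of 8 spermatid genes had 3 members and 6 of 8 spermatocyte genes had 9, and 8 of 8 and 7 of 7 tested genes were called higher. Markers of epididymis (8 genes), accessory glands (7), smooth muscle (4), endothelium (3) and macrophages (3) had no member. Of all genes with an isoform, 11.7% had one. Called lower in testis were 1 of 5 tested epididymis genes, 7 of 7 of the accessory glands, 4 of 4 of smooth muscle, 0 of 2 of endothelium and 2 of 3 of macrophages, against 12.7% of all tested genes.

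Not every member was scarce outside testis by TPM. The mean over the 24 other libraries was at least 1 TPM for 264 listed members (6.40%) and at least 10 TPM for 32. The 5 highest had 5 to 10 testis reads. The isoform of RPN1, of the oligosaccharyltransferase of the endoplasmic reticulum, had 3 and 5 of 740 testis reads of its gene, whose isoforms had 2087 reads elsewhere, and was at 109 to 131 TPM in testis and 42.1 to 277 TPM elsewhere. Its log2 fold change was -0.01 ± 0.16 (SE; adjusted p = 0.98). The isoform of ARF1, a small GTPase of the Golgi, had 3 and 2 reads and 127 to 209 TPM in testis against 0 to 152 TPM elsewhere, groups that overlapped. Its log2 fold change was 2.19 ± 0.91 (SE; adjusted p = 0.041), and it was no longer called in 11 of 30 fits that left out 1 library. These were the fits without any 1 testis library (adjusted p 0.065 to 0.086, limma) and those without BMI epididymis replicate 3, DSE vesicular gland replicate 1, DSE prostate gland replicate 2, BMI bulbourethral gland replicate 1 or DSE bulbourethral gland replicate 2 (0.050 to 0.053). The isoform of EIF3F, a translation initiation factor, was at 311 to 649 TPM in testis and 83.8 to 277 TPM elsewhere. Isoforms of 2 unnamed genes, ENSSSCG00000005169 and ENSSSCG00000009851, completed the 5, with 6 reads each. How salmon divided reads between isoforms of 1 gene was not tested.

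Both breeds were required to have reads, so breeds could differ only in level. Of the 4769 members, 1821 had more BMI reads, 2152 more DSE reads and 796 as many, and 165 had over 4 times as many in BMI and 96 in DSE. Reads of both libraries had a Spearman rho of 0.64 across the 4769 members, a description only, since both were required by the rule and come from 1 joint clustering. In the RNA-seq libraries of testis, 0.48% of 38994 tested transcripts were called higher in BMI and 0.213% in DSE. Of 3397 tested members, 16 (BMI) and 2 (DSE) were called. With the replicate number as a block these were 3 and 1, with 44 and 19 among all 38994 transcripts. In 1 fit of all 30 libraries they were 589 and 47, with 2706 and 729 among all. The count thus rests on the choice of fit. Without the DSE testis replicate 2 the calls among members were 18 and 1, with 202 and 29 among all 36764 transcripts. The median log2 difference of the members (BMI minus DSE) then went from 0.58 to 0.17. That of all tested transcripts went from 0.16 to 0.10. Leaving out any 1 BMI library left 0 calls among members by limma, and 0 to 2 among all tested transcripts. Members at an unadjusted p under 0.05 then numbered 261 to 288, against 532 with all 6 libraries.

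Among the largest called differences was that of YPEL1, a gene of the yippee family, whose isoform was at 130, 140 and 142 TPM in BMI and 3.23, 0.61 and 1.98 TPM in DSE testis, with 76 and 6 Iso-seq reads. The log2 difference was 5.66 ± 0.40 (SE). Without 1 of the 6 libraries it was 5.28 to 5.98, and without a BMI library the isoform was no longer called. The DSE libraries alone did not reach 1 TPM in 3 libraries, so it passed the filter through BMI. Its call is therefore no support and no p is given. Isoforms PB.15584.6 and PB.15584.13 of the unnamed gene ENSSSCG00000062012 were listed in opposite breeds. The first was at 34.6, 44.0 and 37.9 TPM in BMI and 0 in all DSE libraries, and the second at 0 in all BMI libraries and at 31.0, 13.0 and 45.7 TPM in DSE. Both had Iso-seq reads in each breed, 11 BMI and 7 DSE for the first and 4 and 10 for the second. The isoform of C1orf141 was at 0 in BMI and at 3.47, 3.15 and 5.21 TPM in DSE, with 2 and 10 reads. These 3 isoforms entered the fit only through the breed in which they were listed above 0, so their calls are no support and no p is given. The DDX4 isoform had 81 and 17 reads and 54.2 to 65.7 TPM in BMI against 6.38 to 20.4 TPM in DSE, a difference that did not pass (adjusted p = 0.087).

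**Figure D5:**
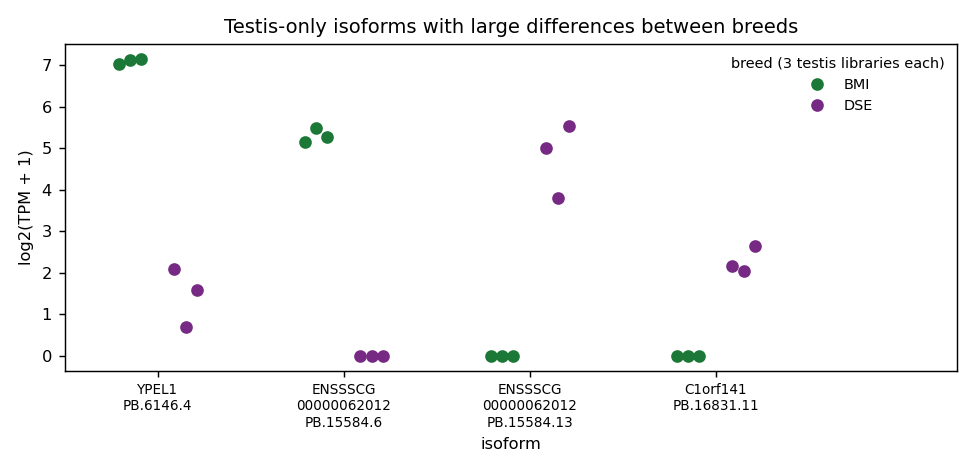
log2(TPM + 1) (y axis) of 4 testis-only isoforms (x axis) in the 3 BMI and 3 DSE testis libraries, each point 1 library. Breeds do not overlap in any of the 4, and both isoforms of ENSSSCG00000062012 are at 0 in 1 breed each.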

How the data were processed

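Total RNA of 5 glands of BMI and DSE boars was sequenced as 10 Iso-seq and 30 RNA-seq libraries. Small RNA libraries were not used here. For Iso-seq, the deposited values are raw read counts of each isoform in each library. The authors clustered the reads of all samples together, aligned them to Sscrofa11.1 with GMAP (listed as GSNAP in the submitters' processing notes), collapsed them with cDNA_Cupcake and classified them with SQANTI3 against Ensembl. For RNA-seq, the authors deposited TPM from Salmon 1.9.0, run on Ensembl transcripts merged with the isoforms outside FSM and ISM. The authors also deposited SQANTI3 features, such as the percent A behind an isoform's end. The study gives read totals of the RNA-seq libraries, which are not used here, and the TPM themselves carry no depth. The labels state rRNA depletion and the methods poly-T beads for RNA-seq. The kit is not described as marking strand, so reads of the Antisense isoform and of NAV2 cannot be told apart.

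Here, members were found from the counts, and exons, donors and starts from the deposited annotation, in Python 3.11.15. In that genome 90.8% of Ensembl introns are GT-AG and 0 transcripts pass a chromosome end. TPM were fitted as log2(TPM + 1) with limma 3.58.1 over 10 groups of breed and gland, testis being the mean of its 2 groups against the mean of the other 8, and breeds over the 6 testis libraries alone. Transcripts needed at least 1 TPM in at least 3 libraries. Gene TPM are sums over transcripts. Nothing states that replicates are separate animals, and p-values measure the spread between these libraries. Isoforms of 1 gene share reads. On simulated data, 97% of planted log2 changes of 2 between glands were recovered among 64661 transcripts, and 81.5% of changes of 4 and 0% of changes of 2 between breeds among 38994.

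The members and lists were chosen with earlier results of these data known. Named were the member with most testis reads in each category and the first 2 in each list (1 member a gene), the 8 largest called changes and the 6 leading new first exons (genes with a symbol), the 5 highest outside testis, the 3 largest calls between breeds in each direction (2 in DSE, and 1 in BMI is not reported here), the 3 genes with most members and the 3 largest members of genes that were not called. SULT1C3, EZH2 and HK1 were named after their values were seen. Intervals cover counting error only, since reads amplified by PCR without molecular identifiers are not independent molecules. Alternatives were another pseudocount, filters, size factors, the replicate block, leaving out each library and other read minimums.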

Additional observations from a re-analysis of the deposited data

Results flagged for a closer look

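In 11 of 45 named members with TPM, and in their summed TPM, 1 of the 6 testis libraries lay far from the rest, with a gap over Dixon's 95% critical value for 6 samples. In every case it was the DSE testis replicate 2. It was highest for CYP17A1 (13870 TPM), ENSSSCG00000030168 PB.900.2 (274.2 TPM) and the Intergenic isoform PB.16007.1 (30.43 TPM). It was lowest for LELP1 (546.2 TPM), OAZ3 (595.7 TPM), IQCF5 (216.9 TPM), LLCFC1 (169.1 TPM), CBY2 (188.0 TPM), TRMO (31.81 TPM), CENPJ (7.367 TPM) and PRDX4 (30.65 TPM), and for the sum of all listed members (37660 TPM). Chance alone flags about 5% of such groups, and these members share 1 library. The same library had 63648 TPM of Leydig markers and 25617 TPM of spermatid markers, against 18624 to 32451 and 76563 to 117130 TPM in the other 5. The part of the cell makeup in these values was not tested.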

How the results depend on the processing

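Of 4769 members, 1920 remained with at least 5 reads required in each testis library, and 11036 isoforms met a minimum of 1. With only the DSE or only the BMI testis library required, 10307 and 10013 did. Weighted by reads, NNC held 63.1% in place of 70.9%. An unannotated first exon was found for 70.4% by the first intron and 73.4% by a start over 100 bp from Ensembl starts, and AATAAA or ATTAAA alone for 70.0%. Members called higher in testis were 3085 to 3226 without any 1 library and 1433 of those with at least 5 reads in each testis library. The other alternatives left the counts against each gland within 1.5 times. Breeds gave 18 calls among members, 636 in 1 fit of all 30 libraries, and 0 to 20 without 1 library. There were 0 without any BMI replicate, where all tested transcripts had 0 to 2. Without DSE replicate 3 there were 10, with 121 in BMI and 6 in DSE over all transcripts. With the replicate block there were 4 (3 in BMI, 1 in DSE). Same-numbered BMI and DSE testis libraries correlated at -0.158, 0.0158 and -0.0734, so the numbers do not pair them. Between glands, same-numbered DSE testis libraries correlated at 0.296, 0.192 and 0.105 with vesicular gland and 0.299, 0.215 and 0.0904 with epididymis, and BMI ones at -0.0411 to 0.0412 and 0.052 to 0.173, so pairing is not settled there. The block left 3117 to 3205 calls against single glands. The RPN1 difference was 0.0544 with size factors and -0.0433 to 0.0309 without 1 library. ARF1 was no longer called with a pseudocount of 0.1 TPM (adjusted p = 0.089, limma) or no filter (0.078). Apart from these RPN1 and ARF1 values, the 188 values of named members against the other glands kept direction and call under alternatives that kept all libraries. A breed difference of 2 (log2) was not recovered in simulated data, which limits what 3 libraries per breed can show.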
